A study of Mus musculus with 8 samples.

Results

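The genes of the proteasome were examined in natural killer (NK) cells from mouse tumours and spleens, as the 48 of 45706 genes in the deposited table whose symbol starts with Psma, Psmb, Psmc, Psmd, Psme, Psmf or Psmg and a digit. The inducible subunits Psmb8 and Psmb9 and the pseudogene names were left out by the same rule. The rule itself used no measured value, but the genes were chosen with earlier results of these data known. The compared groups were tuNK, NK cells sorted from subcutaneous tumours of CT26_b2m-/- cells in BALB/c mice, and spNK, NK cells sorted from spleen, with 4 libraries each. CT26 is a mouse colorectal carcinoma line, and its b2m-/- form lacks β2-microglobulin and therefore MHC class I at the surface. The mice are of 1 strain and carry no further allele or treatment in the labels. The sources used here give neither age nor sorting markers, nor whether spleens and tumours came from the same animals. In each of the 8 samples, the title names one tissue and the tissue tag and source name the other, and every direction below follows the titles. Nothing states that replicates were separate mice, so p-values measure the spread between these libraries, which may be technical.

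The proteasome is the protease that degrades ubiquitin-tagged proteins in the cytosol and nucleus. Its barrel-shaped 20S core is built of outer alpha rings and inner beta rings that hold the catalytic sites. The 19S regulatory particle, made of a base with ATPases and a lid that removes ubiquitin, unfolds substrates and feeds them into the core. In lymphocytes and under interferon, inducible catalytic subunits replace the constitutive ones and change the peptides made for MHC class I. Other caps (the PA28 proteins and PA200) and an inhibitor can bind the core, and dedicated chaperones assemble core and base.

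Of the 48 genes, 15 encode core subunits, 17 subunits of the regulatory particle, 5 a cap or the inhibitor and 7 assembly factors. The other 4 symbols that match the rule are Psma8, Psmb11, Psmc3ip and Psme2b. In all, 46 members passed the filter on low counts and were tested among 14006 genes. Psmb11, the thymus-specific beta subunit, had 0 counts in all 8 libraries. Psma8, the alpha subunit known from testis, had 0 counts in each of the 4 tuNK libraries, against 25, 2, 60 and 41 counts in spNK. Taking 3 counts per library as the limit that a count of 0 allows, the spNK mean lay 10.4-fold above that limit in tuNK, and 7.7-fold without spNK 3. The spNK libraries spread widely (0.738 ± 0.547 CPM, SD, n = 4), and spNK 2, at 2 counts, was itself under 3 counts. The fold is therefore uncertain.

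Promoter sequences are shown for 4 members whose results mark the range of the family. Psma7 and Psmd14 rose in tuNK as subunits of core and lid, Psmg1 rose as an assembly factor, and Psme4 alone fell among the 46 members tested. Each window holds 250 bases before and 50 bases after the gene's start in RefSeq (GRCm38.p6), printed 5′ to 3′ on the gene's strand, with capitals marking matches to the motifs described next.

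Psma7, chr2:180042415-180042714, minus strand: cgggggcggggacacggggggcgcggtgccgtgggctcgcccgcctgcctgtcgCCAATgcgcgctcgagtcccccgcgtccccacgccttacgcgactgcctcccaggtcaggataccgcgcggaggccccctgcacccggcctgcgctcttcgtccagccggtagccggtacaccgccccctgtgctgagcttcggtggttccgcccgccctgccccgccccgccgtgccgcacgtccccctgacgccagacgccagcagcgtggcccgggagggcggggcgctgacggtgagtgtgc

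Psmd14, chr2:61711444-61711743, plus strand: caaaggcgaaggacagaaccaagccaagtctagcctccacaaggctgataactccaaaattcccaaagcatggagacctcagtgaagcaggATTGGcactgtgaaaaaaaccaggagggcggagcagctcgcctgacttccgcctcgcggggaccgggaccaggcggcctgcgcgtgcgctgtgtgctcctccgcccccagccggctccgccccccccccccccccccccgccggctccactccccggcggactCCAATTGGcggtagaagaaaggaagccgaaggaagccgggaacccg

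Psmg1, chr16:95990911-95991210, minus strand: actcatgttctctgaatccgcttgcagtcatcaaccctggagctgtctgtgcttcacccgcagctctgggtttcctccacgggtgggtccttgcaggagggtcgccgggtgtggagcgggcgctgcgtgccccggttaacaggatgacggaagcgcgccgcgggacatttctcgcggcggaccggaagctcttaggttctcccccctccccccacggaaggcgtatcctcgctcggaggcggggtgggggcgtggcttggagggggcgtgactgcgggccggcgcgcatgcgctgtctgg

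Psme4, chr11:30771525-30771824, plus strand: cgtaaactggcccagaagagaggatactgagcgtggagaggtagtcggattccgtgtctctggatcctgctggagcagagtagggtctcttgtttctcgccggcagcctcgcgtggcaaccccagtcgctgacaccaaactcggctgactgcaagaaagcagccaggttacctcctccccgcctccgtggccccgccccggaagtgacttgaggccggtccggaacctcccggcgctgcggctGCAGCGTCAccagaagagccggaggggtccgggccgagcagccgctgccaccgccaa

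The motifs searched on either strand were CCAAT, the CCAAT box, TGACNNNGC, the core of the antioxidant response element that NRF1 and NRF2 bind, and the interferon-stimulated response element, searched as GAAA, any 2 bases and GAAA. RefSeq windows were found for 40 of the 48 members, in 43 windows. CCAAT was present in 32.6% of the member windows and in 37.4% of all 32851 windows. TGACNNNGC was present in 14% of the member windows, against 12.4% of all windows. The interferon-stimulated element was present in 5 member windows (11.6%), those of Psmb3, Psmd4, Psmd9, Psme1 and Psmg4, against 3.44% of all windows. In the printed sequences, Psma7 holds 1 CCAAT match and Psmd14 holds 3, of which the 2 in CCAATTGG overlap. Psme4 holds 1 TGACNNNGC match on the opposite strand, and Psmg1 holds none of these letters. No motif test was run, and a match is a description of letters.

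Library totals ran from 38745721 to 53886923 estimated counts. NK genes summed to 3680 to 5020 CPM (counts per 1000000) in tuNK, against 12400 to 17300 CPM in spNK, and all 10 were lower in tuNK. The 12 genes of mesenchymal and mesenchymal tumour cells were all higher in tuNK, at 2820 to 4730 CPM, with tuNK 1 highest, against 14.8 to 60.1 CPM in spNK, with spNK 3 highest. The 32 genes expressed across leukocytes lay at 22.5 to 30.5% of the spNK mean in tuNK libraries, against 86.8 to 109% in spNK libraries. Summed levels in tuNK and spNK were 47.3 to 63.0 and 1.28 to 10.8 CPM for 7 epithelial genes, of which 6 were higher in tuNK. For 9 macrophage and monocyte genes they were 89.8 to 118 CPM in tuNK and 504 to 621 CPM in spNK, and 7 genes were lower in tuNK. Itgam alone held 29.5 CPM in tuNK and 443 CPM in spNK of that sum, while Cd14 (57.0 CPM in tuNK and 0.297 CPM in spNK) and Mrc1 (3.48 CPM in tuNK and 0.425 CPM in spNK) were higher in tuNK. They were 0.772 to 1.6 in tuNK and 17.8 to 38.9 CPM in spNK for 6 B cell genes, 2 of them at 0 in all tuNK libraries, and 14 to 22.4 in tuNK and 55.0 to 66.1 CPM in spNK for 7 T cell genes, 2 again at 0 in tuNK, and every B cell and T cell gene of the lists was lower in tuNK. Erythroid genes (6) summed to 0.361 to 1.78 CPM in tuNK against 154 to 684 CPM in spNK, with 1 of them at 0 in all tuNK libraries, and platelet genes (5) to 5.34 to 7.09 CPM in tuNK against 321 to 577 CPM in spNK, and each gene of these lists was lower in tuNK. Proteasome genes are expressed in nearly all cell types, and the part of these other cells in the results was not tested. In bulk libraries, fewer cells of a type and less RNA per cell cannot be told apart.

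Proteasome genes were on the whole modestly higher in tuNK. At an adjusted p under 0.05 in edgeR's quasi-likelihood test, 31 of the 46 members rose, 1 fell and 14 were not called. A call of either direction was as common in the family as in the whole table, with 69.6% of members and 69.6% of all genes tested. Calls of higher level made up 67.4% of members, against 35.6% of all genes, and calls of lower level 2.17% of members, against 34.0% of all genes. The changes were small, since 1 member (2.17%) was called at 2-fold or more, against 41.1% of all genes, and 10 members (21.7%) at 1.5-fold or more, against 56.2% of all genes. The 1 member at 2-fold was Psmc3ip, which is no proteasome subunit. Of the 44 genes of the complex or its assembly, 29 rose and 1 fell. None of these 44 was called at 2-fold or more, and 8 were called at 1.5-fold or more. On the log2 scale, fold changes (tuNK minus spNK) had a median of 0.39 over members and 0.02 over all genes tested. Their median size without regard to sign was 0.40 in members and 0.87 in all genes. The libraries of tuNK and spNK did not overlap in 29 members (63.0%), against 67.1% of all genes.

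The size of the shift depended on how libraries were scaled. With library size alone, 22 members rose and 4 fell (Psmd4, Psmd11, Psme4 and Psmb3). With TPM, which divides by transcript length and library sum, 17 rose and 7 fell. TPM values were tested with limma in place of edgeR, so calls with TPM differ from the main ones in both scale and test. The calls of Psma6, Psmb1, Psmd3, Psmd5, Psmd6, Psmd8, Psmd9, Psmd10 and Psme2b were lost in either case, and those of Psmb2, Psmc1, Psmc4, Psmd1 and Psmd12 with TPM but not with library size alone. Scaling to the 32 leukocyte genes moved the median of all genes by 1.74 on the log2 scale, and then all 46 members were higher in tuNK, against 79.1% of all genes, while 6.04% of all genes were lower. The member median stood above the median of all genes by 0.37, a distance that scalings of whole libraries cannot move, and by 0.26 with log2(TPM + 1). When the test asked for more than a 1.5-fold change, 5 members were called, all higher, namely Psma7, Psma5, Psmd7, Psmd14 and Psmc3ip, whereas 45.5% of all genes were called and 23.9% were higher.

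**Figure D1:**
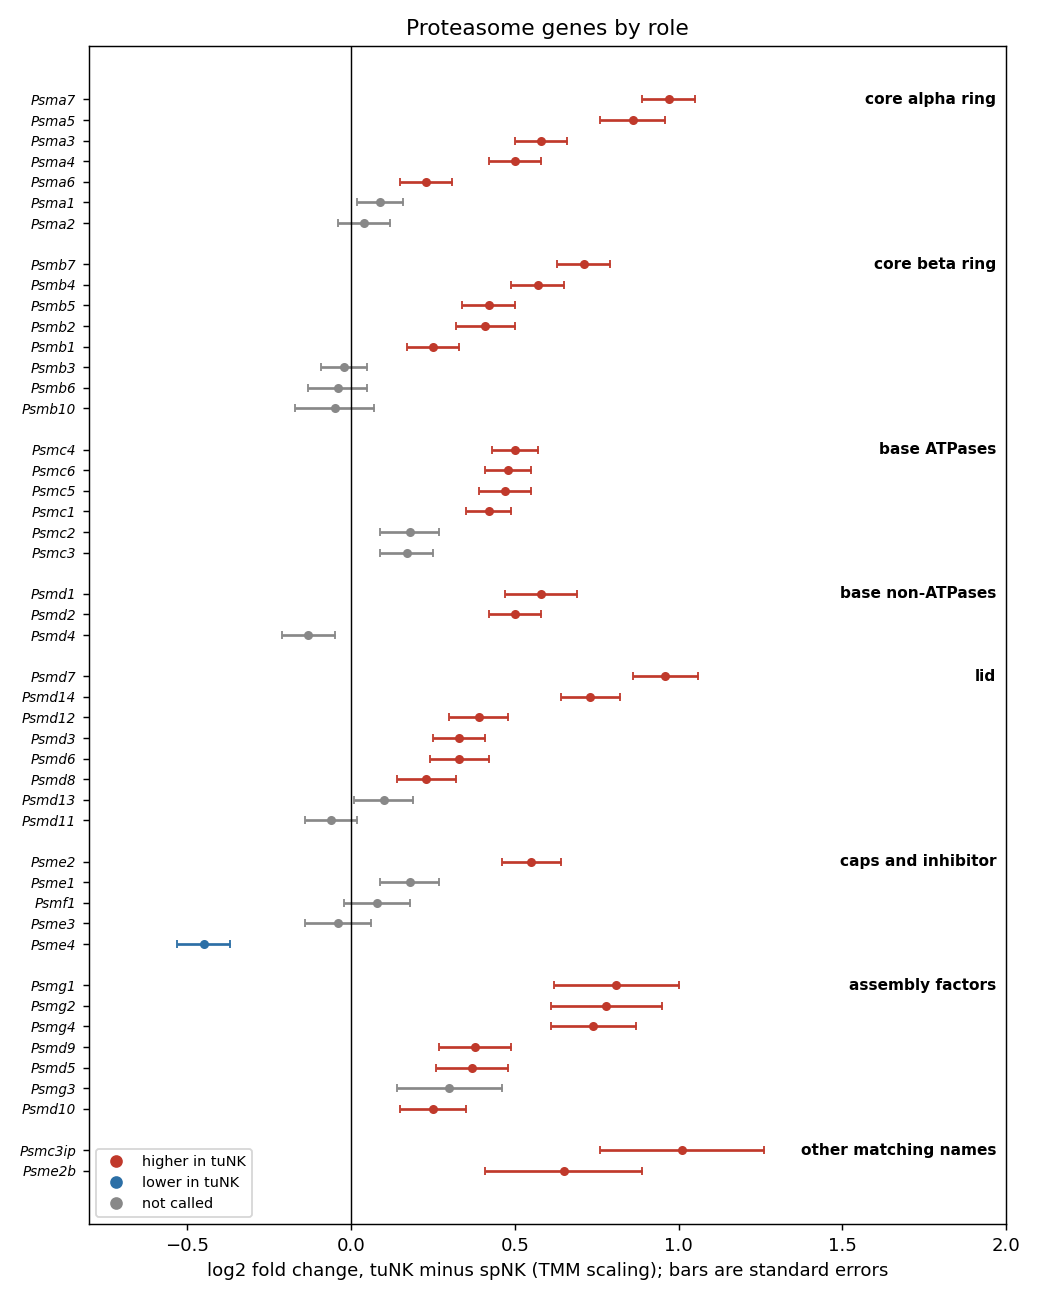
Log2 fold change of each of the 46 tested proteasome genes, tuNK minus spNK, with its standard error, grouped by role. Red points are called higher in tuNK (31 genes), the blue point is called lower (Psme4, -0.45) and 14 grey points are not called, and members of each of the core, lid and base groups spread over more than their standard errors.

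The core, regulatory and assembly genes of the naming rule had like median shifts. The median log2 fold change was 0.41 over the 15 core genes, 0.39 over the 17 regulatory genes and 0.38 over the 7 assembly factors. In the core 10 genes rose and 5 were not called, in the regulatory particle 12 rose and 5 were not called, and among assembly factors 6 rose and 1 was not called. Among the 4 caps and the inhibitor, 1 gene was higher, 1 lower and 3 were not called, with a median of 0.08. Summed core TPM over summed regulatory TPM was 2.23, 2.33, 2.24 and 2.29 in tuNK, against 2.25, 2.17, 2.15 and 2.2 in spNK, and the groups overlapped. The core median and sums leave out Psmb8 and Psmb9, with mean TPM of 419 and 140 in tuNK, against 630 and 189 in spNK. Their log2 fold changes were -0.38 and -0.20. Also outside the rule were Sem1 (0.63) and Adrm1 (0.50) of the regulatory particle and Pomp (0.70) of core assembly. The likeness of the medians therefore holds only for the genes of the rule. No test of the differences between these role groups was run.

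In the alpha ring, whose subunits form the gate of the barrel, 5 of 7 genes rose and the median log2 fold change was 0.50. Psma7 (chromosome 2, 180036374 to 180042433, GRCm38, protein-coding) had 377, 413, 447 and 400 CPM in tuNK, against 192, 211, 221 and 210 CPM in spNK. All 4 tuNK libraries were well above all 4 spNK libraries, with a log2 fold change of 0.97 ± 0.08 (SE) and an adjusted p of 2.06e-06. Psma5 had 295, 319, 335 and 287 CPM in tuNK, against 157, 152, 193 and 177 CPM in spNK, again without overlap (0.86 ± 0.10, adjusted p = 1.68e-05). Psma3 (0.58 ± 0.08), Psma4 (0.50 ± 0.08) and Psma6 (0.23 ± 0.08) also rose. The call of Psma6 (adjusted p = 0.0282) was lost without spNK 1, spNK 4, tuNK 2, tuNK 3 or tuNK 4 and with 3 other settings, and its direction turned with TPM (-0.02).

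Psma2 was the alpha subunit with the smallest change. Its levels were 213, 239, 254 and 232 CPM in tuNK, against 237, 219, 232 and 223 CPM in spNK, and the groups overlapped (log2 fold change 0.04 ± 0.08, adjusted p = 0.649). With TPM its sign turned, at -0.21 with an adjusted p of 0.0189. A gene on the same strand, AW209491, overlaps Psma2 at a mean of 14.4 CPM. Psma1 was not called either (0.09 ± 0.07, adjusted p = 0.321).

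The beta ring holds the catalytic sites, and 5 of its 8 genes rose, with a median log2 fold change of 0.33. The constitutive catalytic subunits did not move together. Psmb7, of the trypsin-like site, had 266, 293, 310 and 300 CPM in tuNK, against 172, 165, 194 and 186 CPM in spNK, and no library overlapped (0.71 ± 0.08, adjusted p = 2.51e-05). Psmb5, of the chymotrypsin-like site, had 176, 190, 209 and 188 CPM in tuNK, against 137, 136, 151 and 144 CPM in spNK, also without overlap (0.42 ± 0.08, adjusted p = 0.00065). Psmb6, of the caspase-like site, had 142, 152, 164 and 163 CPM in tuNK, against 143, 150, 179 and 165 CPM in spNK (-0.04 ± 0.09, adjusted p = 0.738). Its groups overlapped fully, and its sign turned with leukocyte scaling and without spNK 3.

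Psmb10, the inducible counterpart of Psmb7, had 239, 243, 163 and 206 CPM in tuNK, against 227, 232, 205 and 218 CPM in spNK. These groups overlapped, and tuNK 3 was the lowest of all libraries (-0.05 ± 0.12, adjusted p = 0.714). Among non-catalytic beta subunits, Psmb4 (0.57 ± 0.08), Psmb2 (0.41 ± 0.09) and Psmb1 (0.25 ± 0.08) rose, and Psmb3 (-0.02 ± 0.07) was not called. Psmb1 lost its call with library size alone, with TPM and without spNK 1 (adjusted p = 0.0514). Nek6, on the opposite strand, overlaps Psmb7 at a mean of 22.1 CPM, and the sources used here do not say whether the counting used strand.

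Within a library, the ratio of an inducible to its constitutive catalytic subunit does not change with the scaling of the library. The TPM of Psmb10 over that of Psmb7 was 0.729, 0.681, 0.443 and 0.573 in tuNK, against 1.09, 1.18, 0.876 and 0.942 in spNK. Every tuNK ratio lay below every spNK ratio, at means of 0.607 ± 0.127 in tuNK and 1.02 ± 0.139 in spNK (SD, n = 4 each), a log2 difference of -0.77. An exact two-sided permutation test over 70 assignments gave p = 0.0286, the smallest that 4 against 4 can give, and 0.0429 after adjustment over 3 ratios. Psmb8 over Psmb5 was 1.58, 1.91, 1.13 and 1.69 in tuNK, against 2.67, 3.0, 2.28 and 2.76 in spNK, again without overlap (log2 difference -0.78, exact p = 0.0286, adjusted 0.0429). Psmb9 over Psmb6 was 0.685, 0.674, 0.354 and 0.542 in tuNK, against 0.749, 0.721, 0.491 and 0.589 in spNK, and these groups overlapped (log2 difference -0.20, exact p = 0.514).

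The parts of each ratio differed. For the first pair, Psmb7 rose and Psmb10 was not called. For the second pair, Psmb5 rose and Psmb8 fell, at 391 ± 67.4 CPM in tuNK and 509 ± 31.6 CPM in spNK (SD, n = 4 each, log2 fold change -0.38 ± 0.12, adjusted p = 0.0151), a sign that turned with leukocyte scaling. In the third pair neither gene was called (Psmb9 -0.20 ± 0.15, adjusted p = 0.266). All 3 ratios were lowest among tuNK libraries in tuNK 3 and lowest among spNK libraries in spNK 3. Leukocyte genes were also lowest in these libraries within their groups, and NK genes likewise, and the part of either in the ratios was not tested. Without tuNK 3, the log2 difference of Psmb9 over Psmb6 was 0.00. Tap1 overlaps Psmb9 on the opposite strand at a mean of 195 CPM.

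**Figure D2:**
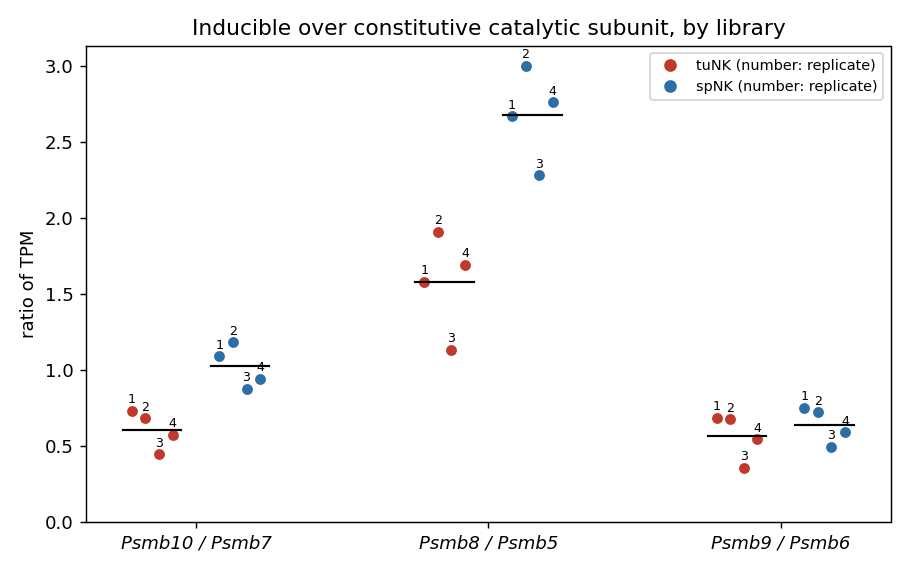
Ratio of the TPM of each inducible catalytic subunit to that of its constitutive counterpart in each library, tuNK in red and spNK in blue, with the replicate number above each point and the group mean as a bar. The first pair lies at 0.443 to 0.729 in tuNK and 0.876 to 1.18 in spNK, the second pair at 1.13 to 1.91 in tuNK and 2.28 to 3.0 in spNK, and the third pair overlaps.

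Shares of single subunits in the proteasome total were also compared, as percent of the summed TPM of the 44 genes of the complex and its assembly. In all, 11 genes took a larger share in every tuNK library than in any spNK library, 13 a smaller one and 20 overlapped. By the same measure, 64.4% of all genes tested did not overlap. Every alpha gene was outside the overlap, with Psma3, Psma4, Psma5 and Psma7 above and Psma1, Psma2 and Psma6 below. The total leaves out Psmb8 and Psmb9, and Psma6 was separated only narrowly, at 3.12% in tuNK 3 and 3.13% in spNK 3. Psma7 took 6.98, 7.12, 7.45 and 6.96% in tuNK, against 4.53, 4.85, 4.71 and 4.81% in spNK. Psma2 took 3.78, 3.93, 4.05 and 3.88% in tuNK, against 5.33, 4.82, 4.72 and 4.83% in spNK. Of the alpha genes Psma7 had the highest TPM in tuNK (539) and Psma2 the highest in spNK (341), and Psma1 had the lowest in tuNK (134) and in spNK (149).

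In the beta ring, Psmb4, Psmb5 and Psmb7 took larger shares in tuNK, Psmb1, Psmb3 and Psmb6 smaller ones, and Psmb2 and Psmb10 overlapped. The separation was narrow for Psmb5 (3.47% in both tuNK 1 and spNK 4, as rounded) and Psmb1 (4.86% in tuNK 2, 4.89% in spNK 3). None of the 7 assembly factors differed in share without overlap. Summed alpha TPM over summed beta TPM was 0.801, 0.806, 0.835 and 0.802 in tuNK, against 0.69, 0.705, 0.7 and 0.677 in spNK, and all tuNK values were higher. The alpha genes did not move as a whole. Mean TPM was much higher in tuNK for Psma7 (539, against 327 in spNK) and Psma5 (279, against 182 in spNK). It was also higher for Psma3 and Psma4, and lower for Psma1, Psma2 and Psma6. Summed alpha levels averaged 1910 ± 95.4 TPM in tuNK and 1580 ± 46.8 TPM in spNK, and summed beta levels 2360 ± 123 TPM in tuNK and 2280 ± 78.5 TPM in spNK (SD, n = 4 each). The beta sums and the total of all members leave out Psmb8 and Psmb9 by the rule. Mean TPM was lower in tuNK for Psmb8 (419, against 630 in spNK) and Psmb9 (140, against 189 in spNK). The comparisons of sums and of shares therefore depend on leaving them out. All members together summed to 8119, 7657, 7420 and 7132 TPM in tuNK, against 6820, 6749, 7245 and 6977 TPM in spNK, and these totals overlapped. Their mean was 1.09-fold higher in tuNK.

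**Figure D3:**
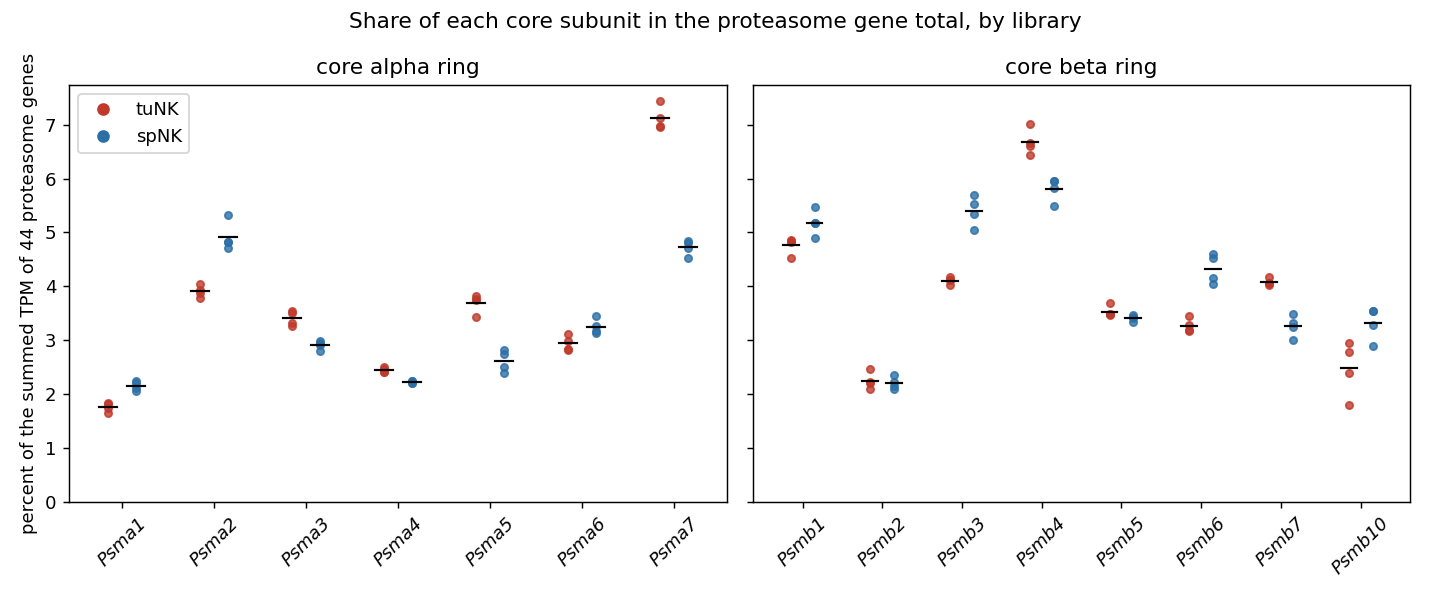
Share of each core subunit in the summed TPM of 44 proteasome genes, in percent, for each tuNK library (red) and spNK library (blue), with the group mean as a bar. Psma7 lies at 6.96 to 7.45% in tuNK and 4.53 to 4.85% in spNK, while Psma2 lies at 3.78 to 4.05% in tuNK and 4.72 to 5.33% in spNK.

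Of the 9 base genes, 6 rose and 3 were not called, with a median log2 fold change of 0.47. The base unfolds substrates through a ring of 6 ATPases, of which Psmc4 changed most. It had 166, 165, 173 and 151 CPM in tuNK, against 116, 112, 116 and 119 CPM in spNK, with no overlap (0.50 ± 0.07, adjusted p = 0.000106). Psmc6 (0.48), Psmc5 (0.47) and Psmc1 (0.42) rose by like amounts. Psmc3 changed least, with 250, 262, 282 and 234 CPM in tuNK, against 220, 223, 236 and 235 CPM in spNK, a slight overlap (0.17 ± 0.08, adjusted p = 0.0757). Slc39a13 overlaps Psmc3 on the opposite strand at a mean of 21.7 CPM. Psmc2 was not called (0.18 ± 0.09, adjusted p = 0.088). Without tuNK 4 the call of Psmc3 was higher (adjusted p = 0.0469), and without spNK 3 that of Psmc2 was (adjusted p = 0.0142).

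Psmd1 and Psmd2, the large scaffold proteins of the base, rose, and the ubiquitin receptor Psmd4 was not called. Psmd1 had 197, 180, 191 and 159 CPM in tuNK, against 116, 107, 149 and 115 CPM in spNK, where spNK 3 was the highest and still below every tuNK library (0.58 ± 0.11, adjusted p = 0.000964). Psmd2 averaged 366 ± 14.8 CPM in tuNK and 259 ± 16.7 CPM in spNK (SD, n = 4 each), a log2 fold change of 0.50 ± 0.08. Psmd4 had 148, 161, 171 and 162 CPM in tuNK, against 171, 179, 188 and 162 CPM in spNK, and the groups overlapped (-0.13 ± 0.08, adjusted p = 0.181). It was called lower with library size alone (-0.30) and with TPM (-0.43), and its sign turned with leukocyte scaling (1.61).

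In the lid, 6 of 8 genes rose and the median log2 fold change was 0.33. The highest were Psmd7 and Psmd14, the pair of proteins that together form the deubiquitinating unit, of which Psmd14 is the enzyme. Psmd7 (chromosome 8, 107580381 to 107588464, GRCm38, protein-coding) had 182, 203, 208 and 205 CPM in tuNK, against 89.6, 91.7, 114 and 115 CPM in spNK. Its groups were far apart, with a log2 fold change of 0.96 ± 0.10 and an adjusted p of 1.16e-05. Psmd14 averaged 234 ± 26.0 CPM in tuNK and 141 ± 4.88 CPM in spNK (SD, n = 4 each), also without overlap (0.73 ± 0.09, adjusted p = 3.09e-05). Psmd11, a lid subunit that contacts the core, had 70.4, 75.4, 80.3 and 85.9 CPM in tuNK, against 80.8, 79.4, 84.2 and 81.6 CPM in spNK (-0.06 ± 0.08, adjusted p = 0.511).

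The other lid genes called higher were Psmd12 (0.39), Psmd3 (0.33), Psmd6 (0.33) and Psmd8 (0.23 ± 0.09, adjusted p = 0.0438). Psmd8 lost its call with upper quartile scaling, library size alone, a filter at 1 CPM and no filter, and in 6 of 8 repeats without 1 library (all but tuNK 1 and spNK 3), and its sign turned with TPM (-0.02). Psmd13 was not called (0.10 ± 0.09, adjusted p = 0.325), and Sirt3 overlaps it on the opposite strand at a mean of 14.2 CPM.

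**Figure D4:**
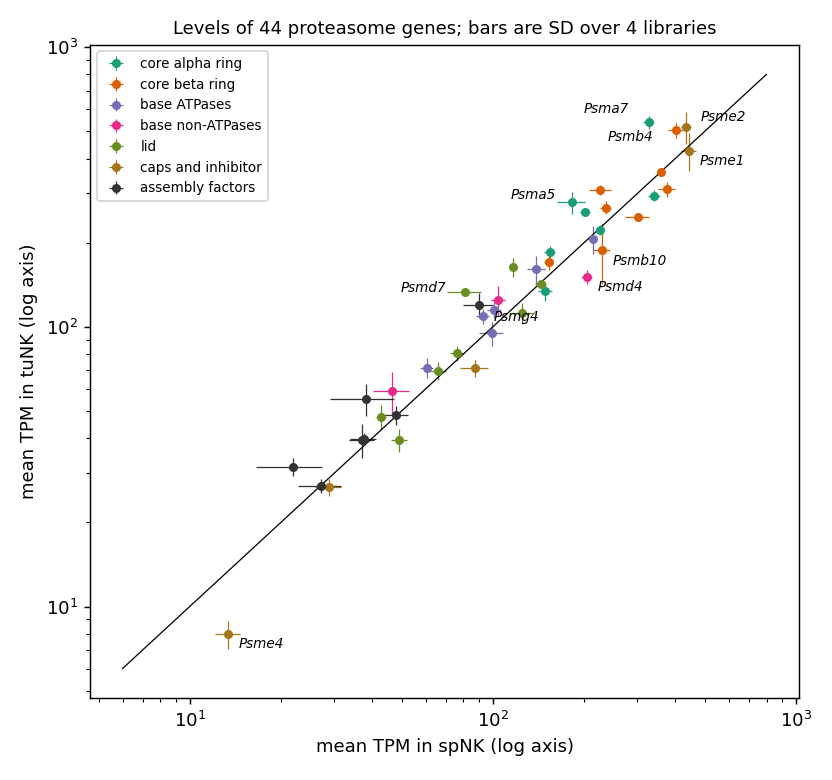
Mean TPM of each of 44 proteasome genes in tuNK (vertical) against spNK (horizontal) on log axes, coloured by role, with SD over 4 libraries as bars and equality as the line. Psma7, Psma5 and Psmd7 lie above the line, Psme4 lies lowest and below it, at 7.98 TPM in tuNK and 13.4 TPM in spNK, and most other genes lie near it.

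Among the caps, Psme1 and Psme2 encode the interferon-inducible PA28 activator, Psme3 its nuclear relative and Psme4 the nuclear activator PA200. Psme2 rose, with 403, 463, 369 and 428 CPM in tuNK, against 271, 294, 288 and 285 CPM in spNK, and no library overlapped (0.55 ± 0.09, adjusted p = 0.000194). Psme1, its partner in the same ring, had 347, 385, 304 and 363 CPM in tuNK, against 310, 336, 306 and 284 CPM in spNK, and the groups overlapped (0.18 ± 0.09, adjusted p = 0.109). Without tuNK 3, the lowest tuNK library for Psme1 and Psme2, Psme1 was called higher (0.23, adjusted p = 0.0438). Some reads of Psme2 were divided with another gene, as its counts were not whole.

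Psme4 was the 1 member called lower. It had 52.0, 52.9, 50.4 and 51.5 CPM in tuNK, against 72.7, 71.0, 75.5 and 63.2 CPM in spNK. The tuNK libraries lay close together below every spNK library, with a log2 fold change of -0.45 ± 0.08 and an adjusted p of 0.00054, a direction that turned with leukocyte scaling (1.29). Psme4 spans chromosome 11, 30771726 to 30880361 (GRCm38), and is protein-coding. Psme3 had 145, 180, 196 and 184 CPM in tuNK, against 174, 169, 195 and 188 CPM in spNK, with tuNK 1 lowest (-0.04 ± 0.10, adjusted p = 0.732). Psmf1, the inhibitor PI31, had 46.0, 47.0, 52.4 and 46.0 CPM in tuNK, against 46.2, 44.7, 51.3 and 39.0 CPM in spNK (0.08 ± 0.10, adjusted p = 0.509). Psme3 and Psmf1 overlapped between groups.

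Of the 7 assembly factors, 6 rose. Psmg1 and Psmg2, which pair to assemble the alpha ring, had low levels and wide spread. Psmg1 had 40.4, 42.8, 56.1 and 43.3 CPM in tuNK, against 20.8, 21.3, 36.7 and 25.4 CPM in spNK, where spNK 3 stood above the other spNK libraries (0.81 ± 0.19, adjusted p = 0.0027). Psmg2 had 27.7, 26.7, 31.7 and 29.7 CPM in tuNK, against 14.4, 13.9, 23.3 and 16.1 CPM in spNK, without overlap (0.78 ± 0.17, adjusted p = 0.0017). Psmg4 had 38.5, 37.4, 51.4 and 44.3 CPM in tuNK, against 23.7, 23.3, 30.2 and 25.9 CPM in spNK, also without overlap (0.74 ± 0.13, adjusted p = 0.00049). Its partner Psmg3 had 19.8, 28.8, 32.8 and 29.4 CPM in tuNK, against 22.8, 19.7, 24.6 and 23.1 CPM in spNK, and was not called (0.30 ± 0.16, adjusted p = 0.109). In tuNK 1, Psmg3 was below 3 of 4 spNK libraries, and without that library the gene was called higher (0.42, adjusted p = 0.0105).

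The chaperones of the base were called higher as well. Psmd5 had 83.3, 103, 107 and 96.1 CPM in tuNK, against 66.7, 68.8, 85.1 and 80.2 CPM in spNK, with tuNK 1 below spNK 3 (0.37 ± 0.11, adjusted p = 0.0104). Psmd9 had 44.8, 45.6, 56.6 and 43.9 CPM in tuNK, against 33.4, 38.3, 39.2 and 35.8 CPM in spNK, and did not overlap (0.38 ± 0.11, adjusted p = 0.00846). Psmd10 had 60.2, 61, 61.5 and 69.9 CPM in tuNK, against 46.5, 58.2, 50.9 and 56.3 CPM in spNK, and did not overlap either (0.25 ± 0.10, adjusted p = 0.0369). All 3 lost their calls with library size alone and with TPM, and Psmd10 lost its call without spNK 1, spNK 3, tuNK 2, tuNK 3 or tuNK 4.

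**Figure D5:**
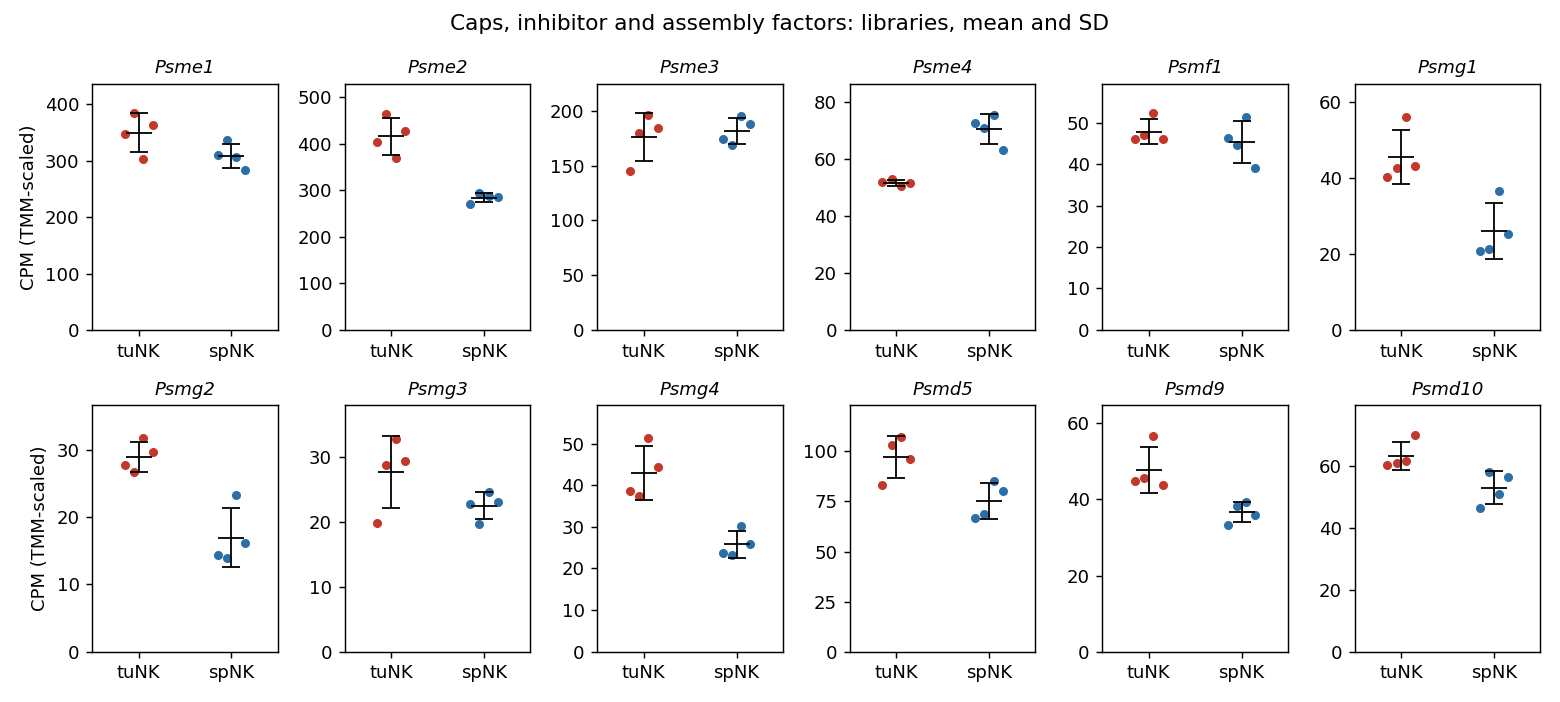
TMM-scaled CPM of the caps, the inhibitor and the assembly factors in each tuNK library (left of each panel) and spNK library (right), with mean and SD. Psme4 lies at 50.4 to 52.9 CPM in tuNK and 63.2 to 75.5 CPM in spNK, whereas Psme2, Psmg1, Psmg2 and Psmg4 lie higher in all tuNK libraries.

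Psmc3ip and Psme2b match the rule by name. Psmc3ip, a factor of meiotic recombination that is no proteasome subunit, had 13.2, 13.2, 15.5 and 16.4 CPM in tuNK, against 5.84, 4.65, 10.7 and 7.68 CPM in spNK (1.01 ± 0.25, adjusted p = 0.00352). Mlx overlaps it on the opposite strand at a mean of 49.3 CPM. Psme2b, a copy of Psme2, had 6.70, 7.01, 4.24 and 6.13 CPM in tuNK, against 4.68, 3.76, 3.76 and 3.10 CPM in spNK. Its groups overlapped through tuNK 3, and its reads were in part divided with another gene, so its call (0.65 ± 0.24, adjusted p = 0.0328) is uncertain. It was lost without spNK 2, spNK 3, spNK 4, tuNK 1, tuNK 2 or tuNK 4, with adjusted p between 0.0549 and 0.103.

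Many members shared the library in which they were highest. In CPM, 33 of the 46 members (71.7%) were highest among tuNK libraries in tuNK 3, against 26.9% of all genes tested, and 29 (63.0%) were lowest in tuNK 1, against 30.1% of all genes. Among spNK libraries, 33 members (71.7%) were highest in spNK 3, against 30.8% of all genes. These shares were not tested. In summed TPM, tuNK 1 was instead the highest tuNK library, so the order depended on the scale. Lowest among tuNK libraries in tuNK 3 were 5 members (10.9%, against 28.7% of all genes), namely Psme4, Psme2b and the interferon-inducible Psmb10, Psme1 and Psme2. Irf1, the transcription factor that drives inducible proteasome genes under interferon, had 164, 106, 52.3 and 84.6 CPM in tuNK, against 283, 243, 198 and 252 CPM in spNK, and was likewise lowest in tuNK 3. In other libraries the order differed. Irf1 was highest in tuNK 1, but Psmb10, Psme1 and Psme2 in tuNK 2. Among spNK libraries, Irf1 and Psmb10 were lowest in spNK 3, Psme1 in spNK 4 and Psme2 in spNK 1. A relation of Irf1 to these genes was not tested. The coefficient of variation of members ran from 1.31 to 20.6% in tuNK (median 7.21%) and from 2.25 to 36.7% in spNK (median 6.44%). Without tuNK 1 and spNK 3 together, 32 members rose and 1 fell.

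Genes that work with the proteasome were described in 3 lists, to be read against the 35.6% of all genes that rose and the 34.0% that fell. Of 14 partners measured, among which Psmb8 (lower) and Psmb9 (not called) are counted again, 6 rose, 4 fell and 4 were not called, with a median log2 fold change of 0.08. With leukocyte scaling, 13 were higher and 0 lower, against 79.1% and 6.04% of all genes. Zfand2a, a stress-induced proteasome-binding protein, was the highest (0.91 ± 0.16) and Ubxn11 the lowest, at 7.54 CPM in tuNK and 25.6 CPM in spNK (-1.76 ± 0.19), though its log2 fold change was -0.03 with leukocyte scaling. Some partners were chosen after their values were seen, since they are part of the complex or of its making. Pomp, the chaperone of core maturation, averaged 189 ± 15.6 CPM in tuNK and 116 ± 2.13 CPM in spNK (SD, n = 4 each, 0.70 ± 0.08, adjusted p = 1.75e-05). Sem1, a small lid subunit listed as Shfm1, averaged 253 ± 31.8 CPM in tuNK and 164 ± 5.57 CPM in spNK (0.63 ± 0.10). Adrm1, a ubiquitin receptor of the base, rose by 0.50 ± 0.07.

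Among 10 regulators of proteasome genes, 3 rose, 3 fell and 4 were not called, with a median log2 fold change of -0.04. With leukocyte scaling, 9 were higher and 0 lower. Nfe2l1, which encodes the NRF1 factor that raises proteasome genes when proteasome activity is short, had 131, 91.4, 100 and 103 CPM in tuNK, against 63.8, 62.8, 53.8 and 74.1 CPM in spNK, and no library overlapped (0.74 ± 0.13, adjusted p = 0.000416). Ngly1, the enzyme that removes sugars from NRF1, averaged 31.2 ± 4.65 CPM in tuNK and 60.0 ± 3.83 CPM in spNK (SD, n = 4 each, -0.94 ± 0.11), and its sign turned with leukocyte scaling (0.78). These genes, too, were chosen after their values were seen. Maff, a small partner of such factors, was the highest of the list, at 48.6 ± 8.85 CPM in tuNK and 0.378 ± 0.185 CPM in spNK (6.97 ± 0.32). Irf1 was the lowest (-1.26 ± 0.31, adjusted p = 0.00512), a sign that turned with leukocyte scaling (0.49).

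Of 14 genes that make ubiquitin or deliver tagged proteins, 7 rose, 2 fell and 5 were not called, with a median of 0.32. All 14 were higher with leukocyte scaling. Rad23b, a shuttle that carries ubiquitinated proteins to the proteasome, was the highest, at 244 ± 12.1 CPM in tuNK and 136 ± 15.7 CPM in spNK (SD, n = 4 each, 0.84 ± 0.09). Midn, which brings nuclear proteins to the proteasome without ubiquitin, was the lowest, at 65.3 ± 4.25 CPM in tuNK and 103 ± 11.9 CPM in spNK (-0.66 ± 0.10), with a sign that turned with leukocyte scaling (1.09).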

How the data were processed

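RNA-seq libraries of sorted NK cells were grouped by title into 4 tuNK and 4 spNK libraries. Per the submitters' processing notes, FastQC 0.11.9, STAR and Salmon were used with GRCm38 (mm10). Versions of aligner and quantifier, gene annotation and strand option were not given in the sources used here. Quantification gave 2 tables. The authors deposited estimated counts (expected counts, not normalized) and TPM, in which each library sums to 1000000. Every column of sample values was mapped (0 unmapped).

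Estimated counts were rounded to whole numbers, filtered with filterByExpr and scaled with TMM, and tuNK was compared with spNK by the quasi-likelihood F test of edgeR 4.0.16 (R 4.3.3) with Benjamini-Hochberg adjustment over 14006 genes and a threshold of 0.05. Levels are TMM-scaled CPM unless TPM is named, except marker sums, which leave out TMM. Depth was 38745721 to 53886923 counts per library. The fit was tested on simulated data. Alternatives were other scalings and filters, DESeq2 1.42.0, limma 3.58.1 on counts or on log2(TPM + 1) and log2(TPM + 0.1), a test against 1.5-fold, a block and leaving out libraries.

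The proteasome genes and all lists were chosen with earlier results of these data known. Values per library are given for the catalytic subunits, caps, inhibitor and assembly factors and for the member with the highest and the lowest fold change in each other role group; Psma5, Psmd14, Psmd2 and the library values of Nfe2l1 and Irf1 were added after seeing their values. Related genes are named by the highest and lowest of each list. Of 15 partners listed, Paaf1 was not matched, and Sem1, Ecpas and Ufd1 were matched by gene ID. Of the members, 12 (Psmd2, Psmd11, Psmc1, Psmb5, Psmd1, Psmg3, Psma4, Psma3, Psma5, Psmb3, Psme2b and Psme2) had a count more than 0.05 from a whole number, so that some of their reads were divided with other genes. Positions are those of GENCODE M21, and overlaps were taken between whole gene spans, introns included. Psma2, Psmb7, Psmc3, Psmd13 and Psmc3ip, named above with an overlapping gene, are not among these 12.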

Additional observations from a re-analysis of the deposited data

Results flagged for a closer look

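In a group of 4 libraries, a library was picked out where its gap to the nearest library, divided by the group's range, was above Dixon's critical value. Of 98 groups checked, 3 held such a library, and chance picks out about 1 in 20 groups. Psmf1, the inhibitor PI31, reached 52.4 CPM in tuNK 3, against 47.0 CPM in the nearest tuNK library. Psmd9, a chaperone of the base, reached 56.6 CPM in tuNK 3, against 45.6 CPM in the nearest tuNK library. Psmd10, a further chaperone of the base, reached 69.9 CPM in tuNK 4, against 61.5 CPM in the nearest tuNK library. The cause was not tested.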

How the results depend on the processing

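With DESeq2 size factors, DESeq2 and limma-voom, 31 to 32 members rose and 1 fell. The count of genes called moved to 6378 (3028 of them lower) in the test against 1.5-fold, and to 11072 higher and 846 lower with leukocyte scaling. Members called moved to 5, with 5 higher and 0 lower, against 1.5-fold, and to 17 higher and 7 lower with TPM at either offset. Members lower numbered 4 with library size alone, 0 with leukocyte scaling and 2 (Psma8 and Psme4) with no filter. Leaving out 1 library gave 9451 to 9907 genes called, 28 to 33 members called, 27 to 31 higher and 1 to 2 lower.

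Log2 fold changes turned as follows. Upper quartile scaling gave -0.01 for Psma2. Library size alone gave -0.08 for Psma1, -0.13 for Psma2, -0.07 for Psmd13 and -0.09 for Psmf1. Leukocyte scaling gave 1.68 for Psmb10, 1.71 for Psmb3, 1.69 for Psmb6, 1.61 for Psmd4, 1.67 for Psmd11, 1.69 for Psme3, 1.29 for Psme4, 1.34 for Psmb8, 1.53 for Psmb9, 0.49 for Irf1, 1.09 for Midn and 0.78 for Ngly1. It moved the median of all genes tested from 0.02 to 1.76, and each of these genes stayed below that median. TPM at either offset gave -0.16 for Psma1, -0.21 for Psma2, -0.02 for Psma6, -0.07 for Psmc2, -0.06 for Psmc3, -0.17 for Psmd13, -0.02 for Psmd8, -0.07 for Psme1 and -0.10 for Psmf1. Without tuNK 1 and spNK 3 together, Psmb3 was 0.02, Psmb6 0.06 and Psme3 0.07. Leaving out 1 library gave -0.01 to 0.07 for Psma2, -0.13 to 0.05 for Psmb10, -0.10 to 0.01 for Psmb6 and -0.11 to 0.03 for Psme3. None of the genes that turned was called in the main comparison, apart from Psma6, Psmd8, Psme4, Psmb8, Irf1, Midn and Ngly1. Apart from the shift of all genes by leukocyte scaling, the cause was not tested.

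Leaving out 1 library, the log2 differences of the ratios ran from -0.87 to -0.63 for Psmb10 over Psmb7, -0.88 to -0.63 for Psmb8 over Psmb5 and -0.32 to 0.00 for Psmb9 over Psmb6. Without tuNK 1 and spNK 3 together, the first was -0.94 and the second -0.87, each with an adjusted exact p of 0.15 at the smallest p that 3 against 3 allows.

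Deviations of same-numbered libraries correlated at -0.0081, 0.0417, 0.0305 and 0.0219, and those of differently numbered libraries at -0.0641 to 0.0354. Values this near 0 cannot tell whether replicate numbers pair the libraries. With the numbers as a replicate block, 9555 genes and 31 members were called, 30 higher and 1 lower, and Psme2b was the member lost (adjusted p = 0.0589 in edgeR). In the block the ratio differences were -0.77 for Psmb10 over Psmb7 and -0.78 for Psmb8 over Psmb5. Each had an adjusted permutation p of 0.125, where sign flips over 4 pairs cannot reach 0.05. Psmb9 over Psmb6 was also lower in tuNK in each same-numbered pair, at 0.685, 0.674, 0.354 and 0.542 in tuNK, against 0.749, 0.721, 0.491 and 0.589 in spNK. As the numbers may not pair the libraries, this adds no support for a difference. Without pairing, the groups overlapped (exact permutation p = 0.514). Psma8 and Psmb11 had too few counts for the main filter.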
